A study of Mus musculus with 4 samples.

Results

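The genes described here are the insulin-like growth factor Igf1, its receptor Igf1r, the insulin receptor Insr and 6 insulin-like growth factor (IGF) binding proteins, Igfbp2 to Igfbp7. They were taken by name from the deposited table of FPKM values (fragment counts divided by transcript length and by the library's mapped fragments), and all 9 were found, each once, among the 46072 genes of the table. The study sequenced poly(A) RNA from mouse brain vasculature in 4 libraries, labelled as endothelial cells dissected by laser capture, a method that excises selected cells from sectioned tissue. Per the series title, the brains were perfusion-fixed and capture was guided by immunostaining. All 4 libraries carry the genotype label WT and no treatment, and they form 1 group, named here replicates 1 to 4. The sources used here give no strain or age, nor the number of animals behind the libraries, so p-values reflect the spread among these 4 libraries alone, which may be technical.

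IGF1 and IGF2 are secreted peptides that act through the IGF1 receptor, a tyrosine kinase closely related to the insulin receptor. Receptor activation recruits insulin receptor substrates, which pass the signal on to PI3K, Akt and mTOR. In blood and tissue fluid most IGF is held by binding proteins, which set its half-life and its access to the receptor. At the blood-brain barrier, endothelial receptors for insulin and IGF1 are known to take part in moving these hormones from blood to brain.

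The start regions of 3 genes are shown because they belong to the pair of members with the highest levels, Igfbp2 and Igfbp7, and to the member with the lowest, Igf1r. Each is the 250 bases before the RefSeq transcript start on GRCm38.p6, written 5′ to 3′ on the gene's own strand. They lie at chr1:72824230-72824479 on the plus strand for Igfbp2, chr5:77408046-77408295 on the minus strand for Igfbp7 and chr7:67952007-67952256 on the plus strand for Igf1r. Capitals mark the GC box GGGCGG, searched on both strands (CCGCCC on the other), and no match overlapped another.
Igfbp2: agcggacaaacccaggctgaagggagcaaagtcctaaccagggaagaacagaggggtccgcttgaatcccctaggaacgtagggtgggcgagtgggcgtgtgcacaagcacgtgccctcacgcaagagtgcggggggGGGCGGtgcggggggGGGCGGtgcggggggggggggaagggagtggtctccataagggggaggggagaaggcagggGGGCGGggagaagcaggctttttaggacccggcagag
Igfbp7: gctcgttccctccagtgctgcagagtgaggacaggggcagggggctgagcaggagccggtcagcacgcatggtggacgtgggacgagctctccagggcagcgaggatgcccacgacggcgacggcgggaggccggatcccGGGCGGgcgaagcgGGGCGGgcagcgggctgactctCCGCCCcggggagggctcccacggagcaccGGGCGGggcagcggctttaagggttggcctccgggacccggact
Igf1r: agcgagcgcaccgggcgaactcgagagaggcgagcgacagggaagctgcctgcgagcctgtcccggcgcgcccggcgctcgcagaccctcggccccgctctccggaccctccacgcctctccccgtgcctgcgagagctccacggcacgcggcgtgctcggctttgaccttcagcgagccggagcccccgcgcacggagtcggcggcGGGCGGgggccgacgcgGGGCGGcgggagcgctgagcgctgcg

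The Igfbp2 sequence held 3 GC boxes, the Igfbp7 sequence 4 and the Igf1r sequence 2. Their G and C content was 67.2% for Igfbp2, 74% for Igfbp7 and 77.6% for Igf1r, against a median of 52.4% over 32851 RefSeq start regions of the same length. Of all those regions, 32.7% held a GC box and 12.4% a TATA box (TATAAA, or TTTATA on the other strand). None of the 3 sequences shown held a TATA box. RefSeq start regions were matched for 8 of the 9 members, all but Insr. The RefSeq start lay 2846 bases from the GENCODE gene start for Igf1, 570 for Igf1r, 176 for Igfbp6 and at most 23 for the others. The Igf1 window thus lies inside the gene's GENCODE span. Igfbp2 had 2 starts listed, and the start nearest the GENCODE start was used. Among the 5 not shown, Igfbp4 and Igfbp6 held 1 TATA box each, and Igf1, Igfbp3, Igfbp4, Igfbp5 and Igfbp6 held no GC box. These matches describe letters in a window and were not set against any measurement of factor binding.

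The libraries had FPKM sums between 448678 and 482882, with 13344 to 13866 genes at 1 FPKM or more. Of 17 general endothelial markers, 13 lay above 1 FPKM in limma's test, Erg lay below and Cdh5, Vwf and Robo4 did neither. The same test placed 47.7% of all 25206 tested genes above and 40.1% below. None of the 17 was listed at 0 in all libraries. Markers of other brain cells were abundant in the same libraries. The median marker level per library was 3.51 to 4.76 FPKM for the endothelial list, 149 to 172 FPKM for 12 neuronal markers, 51.5 to 75.5 FPKM for 11 astrocyte markers, 78.2 to 94.5 FPKM for 10 oligodendrocyte markers and 24.9 to 33.2 FPKM for 12 microglial markers. It was 16.6 to 28.9 FPKM for 10 choroid plexus markers, 4.35 to 6.71 FPKM for 10 fibroblast markers, 2.88 to 3.18 FPKM for 10 pericyte markers, 3.01 to 4.12 FPKM for 10 smooth muscle markers and 200.3 to 338 FPKM for 7 erythroid markers. The libraries are called here by their label, and the part of each cell type in a member's level was not tested. In bulk samples, fewer cells of a type and less RNA per cell cannot be told apart.

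The binding proteins were the abundant members, and the ligand Igf1 and both receptors lay near 1 FPKM. Mean levels ran from 179.7 FPKM for Igfbp2 to 0.9997 FPKM for Igf1r. The order was Igfbp2, Igfbp7, Igfbp6, Igfbp4, Igfbp5, Igfbp3, Igf1, Insr and Igf1r. In limma's test against 1 FPKM, 7 of the 9 members lay above that level, none below, and Insr and Igf1r did neither. The same test placed 47.7% of the 25206 tested genes above 1 FPKM and 40.1% below. The members' median difference from 1 FPKM was 2.67 on the log2(FPKM + 1) scale, against 0.27 over all tested genes.

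**Figure D1:**
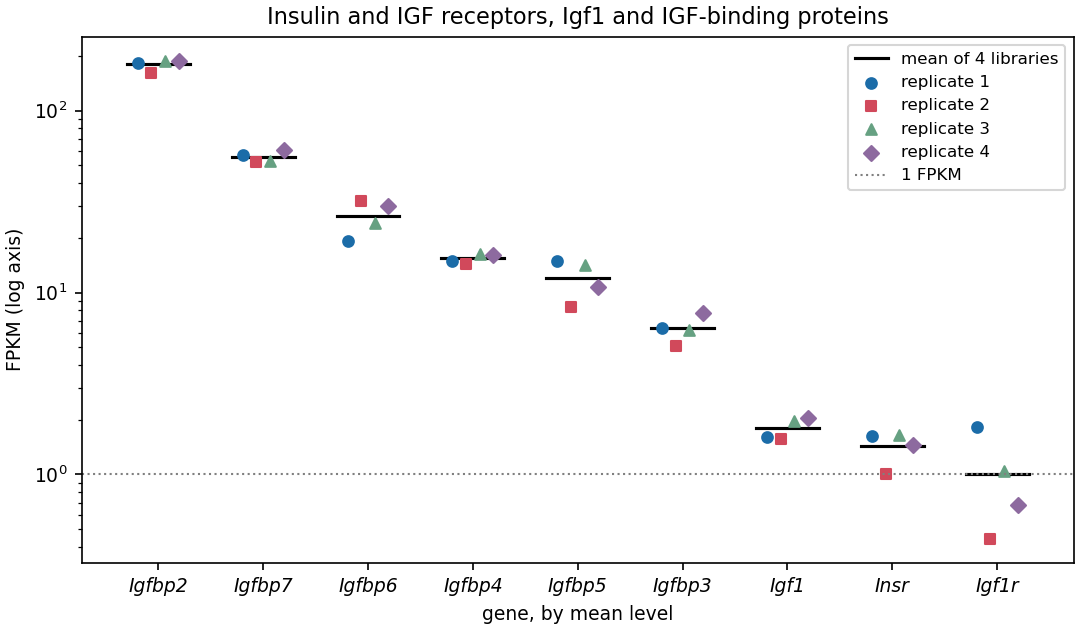
FPKM (log axis) of each member in each of the 4 libraries (symbols) with the mean (bar), ordered by mean level, and a dotted line at 1 FPKM. The binding proteins Igfbp2 to Igfbp7 sit above 5 FPKM in every library, while Igf1, Insr and Igf1r sit between 0.441 and 2.04 FPKM.

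Igf1, which encodes the ligand of the IGF1 receptor, lies on chromosome 10 (GRCm38, 87858265 to 87937042, plus strand). Its level was 1.61, 1.56, 1.97 and 2.04 FPKM in replicates 1 to 4, a mean of 1.80 ± 0.244 FPKM (SD, n = 4). The 4 libraries were close together, with replicates 3 and 4 above replicates 1 and 2. Igf1 lay 0.48 above 1 FPKM on the log2(FPKM + 1) scale (SE 0.12, limma adjusted p = 0.0111), in 4 of 4 libraries. Without replicate 4 the difference was 0.44 and the adjusted p was 0.0534, which misses the threshold. The antisense gene Igf1os, which overlaps Igf1, was listed at 0 in all 4 libraries.

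Igf1r encodes the IGF1 receptor and lies on chromosome 7 (67952827 to 68233668, plus strand). Its level was 1.83, 0.441, 1.05 and 0.682 FPKM in replicates 1 to 4, a mean of 0.9997 ± 0.606 FPKM (SD, n = 4). Relative to its mean this was the widest spread among the 9 members, with replicates 1 and 3 above 1 FPKM and replicates 2 and 4 below it. Igf1r differed from 1 FPKM by -0.05 on the log2(FPKM + 1) scale (SE 0.18, limma adjusted p = 0.817). The sign of that small difference turned without replicate 2, at 0.09, and without replicate 4, at 0.02.

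Insr encodes the insulin receptor and lies on chromosome 8 (3122061 to 3279617, minus strand). It had 1.62, 1.002, 1.64 and 1.45 FPKM in replicates 1 to 4, a mean of 1.43 ± 0.297 FPKM (SD, n = 4). Replicate 2 was lowest and only just above 1 FPKM. The difference from 1 FPKM was 0.27 on the log2(FPKM + 1) scale (SE 0.12, limma adjusted p = 0.0902). Its antisense gene Gm16180 was listed at 0 in all libraries. Rescaling every library to a fixed sum, which moved the median difference of all genes from 1 FPKM to 0.99, put Insr at 1.01 (limma adjusted p = 0.00259) and Igf1r at 0.57 (adjusted p = 0.0972).

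Levels of the receptors were compared within each library by an exact sign-flip test, 2-sided, whose smallest possible p is 0.125 with 4 libraries. The ratio of Igf1r to Insr was 1.13, 0.441, 0.636 and 0.471 in replicates 1 to 4. Insr was thus the higher of the pair in 3 of 4 libraries and Igf1r in replicate 1. The mean log2 ratio was -0.69 ± 0.62 (SD, n = 4, exact p = 0.25, adjusted over 4 pairs 0.333). Igf2r, the receptor that carries IGF2 to lysosomes for breakdown and does not signal through a kinase, had a mean of 1.23 ± 0.172 FPKM (SD, n = 4). The ratio of Igf2r to Igf1r was 0.598, 2.56, 1.41 and 1.80 in replicates 1 to 4, a mean log2 ratio of 0.49 ± 0.89 (exact p = 0.375, adjusted 0.375). Without replicate 1 the mean log2 ratio of Igf2r to Igf1r was 0.90, and without replicate 2 it was 0.20. On the log2(FPKM + 1) scale the mean differences were smaller, at -0.32 for Igf1r over Insr and 0.20 for Igf2r over Igf1r. The sign differed between libraries for both pairs, and neither passed its test. The gene Airn overlaps Igf2r on the other strand by 28354 bases and had 1.40 to 2.87 FPKM, so without a stated strand setting the Igf2r level is uncertain.

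Igfbp2 had the highest level of the members. The gene lies on chromosome 1 (72824503 to 72852474, plus strand), and its product binds both IGFs and is the main IGF-binding protein of cerebrospinal fluid. Its level was 183, 160.2, 187 and 188 FPKM in replicates 1 to 4, a mean of 179.7 ± 13.2 FPKM (SD, n = 4). All 4 libraries lay within a narrow range that no other member reached. The mean stood at percentile 98.6 of the 25206 tested genes, and at percentile 97.4 among genes whose longest transcript was within 1.5 times that of Igfbp2. The difference from 1 FPKM was 6.49 on the log2(FPKM + 1) scale (SE 0.06, limma adjusted p = 9.9e-08).

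Igfbp7 was next in level. It lies on chromosome 5 (77349240 to 77408041, minus strand), and its product binds IGFs weakly and is deposited in the basement membrane of vessels. It had 56.9, 52.5, 52.9 and 60.7 FPKM in replicates 1 to 4, a mean of 55.8 ± 3.87 FPKM (SD, n = 4). Igfbp2 was above Igfbp7 in 4 of 4 libraries, with a ratio of means of 3.22, and their ranges did not overlap. Igfbp7 overlaps Polr2b on the other strand by 85 bases, and Polr2b had 12.4 to 14.8 FPKM.

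Igfbp6, whose product prefers IGF2 over IGF1, lies on chromosome 15 (102144362 to 102149511, plus strand). It had 19.3, 31.9, 24.1 and 30.02 FPKM in replicates 1 to 4, a mean of 26.3 ± 5.77 FPKM (SD, n = 4). Unlike every other member, it was highest in replicate 2 and lowest in replicate 1. Its range stayed below that of Igfbp7 and above that of Igfbp4.

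Igfbp4, whose product mainly restrains IGF action until a protease cuts it, lies on chromosome 11 (99041244 to 99054392, plus strand). It had 14.9, 14.4, 16.2 and 16.1 FPKM in replicates 1 to 4, a mean of 15.4 ± 0.876 FPKM (SD, n = 4). Its coefficient of variation of 5.68% was the smallest among the members, and genes within 2 times its mean had a median of 13.7%. Igfbp5, whose product binds extracellular matrix, lies on chromosome 1 (72857932 to 72874884, minus strand), 5457 bases from Igfbp2. Igfbp5 had 14.9, 8.32, 14.1 and 10.7 FPKM in replicates 1 to 4, a mean of 11.99 ± 3.06 FPKM (SD, n = 4). Igfbp4 was above Igfbp5 in 4 of 4 libraries, but their ranges overlapped, because Igfbp5 in replicate 1 exceeded Igfbp4 in replicate 2. The close neighbours Igfbp2 and Igfbp5 differed in level, with means of 179.7 and 11.99 FPKM.

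Igfbp3, the main carrier of IGFs in blood, lies on chromosome 11 (7206086 to 7213923, minus strand). It had 6.42, 5.07, 6.24 and 7.71 FPKM in replicates 1 to 4, a mean of 6.36 ± 1.08 FPKM (SD, n = 4). This was the lowest binding protein among the members, yet every library lay above the highest Igf1 value. Igfbp3 lay 1.87 above 1 FPKM on the log2(FPKM + 1) scale (SE 0.11, limma adjusted p = 2.33e-05). Igfbp1, its neighbour at a gap of 3539 bases and a protein made chiefly by liver, was listed at 0 in replicates 1 to 3 and had 0.196 FPKM in replicate 4.

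On the log2(FPKM + 1) scale, Igfbp7, Igfbp6, Igfbp4 and Igfbp5 lay 4.82, 3.75, 3.04 and 2.67 above 1 FPKM, in 4 of 4 libraries each, with limma adjusted p of 1.02e-07, 2.98e-06, 2.88e-07 and 2.09e-05. Between neighbours in the order of levels, ranges over the 4 libraries did not overlap except for Igfbp4 and Igfbp5, Igf1 and Insr, and Insr and Igf1r. Igf1 was above Insr in 3 of 4 libraries, and Insr above Igf1r in 3 of 4. The lowest 3 members therefore cannot be put in a firm order from these libraries. The step from Igfbp3 to Igf1 was the widest in the order, with a ratio of means of 3.54.

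The 6 binding proteins summed to 295, 273, 301 and 314 FPKM in replicates 1 to 4, a mean of 295.5 ± 17.2 FPKM (SD, n = 4). Igfbp2 made up 60.8% ± 1.62 of this sum, Igfbp7 18.9% ± 0.858 and Igfbp6 8.96% ± 2.22 (SD, n = 4). Igfbp4 made up 5.22% ± 0.155, Igfbp5 4.05% ± 0.967 and Igfbp3 2.14% ± 0.247. The makeup of the family by level was thus close to constant over the libraries for Igfbp2, Igfbp7 and Igfbp4 and varied most for Igfbp6 and Igfbp5. Shares of FPKM compare transcripts per length and say nothing of protein.

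Set against general endothelial markers in the same library, the binding proteins lay above and Igf1, Insr and Igf1r below. The level to compare with was each library's median over the 17 markers, which was 4.76, 4.09, 4.49 and 3.51 FPKM in replicates 1 to 4. limma placed 6 members above this median, among 31.8% of all tested genes, and 3 below, among 60.1%. All genes share the same median in that fit, so its p-values may be too small, and each gene's own variance was also used. With own variances 30% of all genes lay above and 57.9% below, and 5 members lay above and 3 below. The member that lost its call was Igfbp3, at 0.49 on the log2(FPKM + 1) scale with an adjusted p of 0.0572 by limma with own variances. Its call in the moderated fit was also lost without replicate 4 (0.34, limma adjusted p = 0.0528) and against the mean of the markers (0.10, adjusted p = 0.462). Every member lay on the same side in 4 of 4 libraries.

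Igfbp2 lay 5.12 ± 0.19 above the endothelial median on the log2(FPKM + 1) scale (SD, n = 4, limma adjusted p with own variances = 0.000424), and Igfbp7 3.45 ± 0.22 above (adjusted p = 0.000424). Igfbp6 lay 2.37 ± 0.45 above, Igfbp4 1.66 ± 0.19 and Igfbp5 1.29 ± 0.28, with limma adjusted p of 0.00296, 0.000966 and 0.00411, again with own variances. Igfbp2 stood above all 17 endothelial markers by mean level, and Igfbp7 above 16. Below the median, Igf1 differed by -0.90 ± 0.24 (limma adjusted p with own variances = 0.0069), Insr by -1.10 ± 0.19 (0.00241) and Igf1r by -1.42 ± 0.32 (0.00454). Of the 17 markers, 4 lay below Igf1 and Insr and 2 below Igf1r. The median over all tested genes was -1.11, with Igf1 above it, Insr close to it and Igf1r below it. By mean FPKM, Igf1, Insr and Igf1r stood at percentiles 52.6, 49.8 and 45.8 of all tested genes. Among genes whose longest transcript was within 1.5 times their own, the percentiles were 36.3, 33.3 and 27.4. The 3 members below the endothelial median had longest annotated transcripts of 7052 to 11409 bases, and the 6 above had 1112 to 6006 bases. The part of transcript length in this split was not tested.

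**Figure D2:**
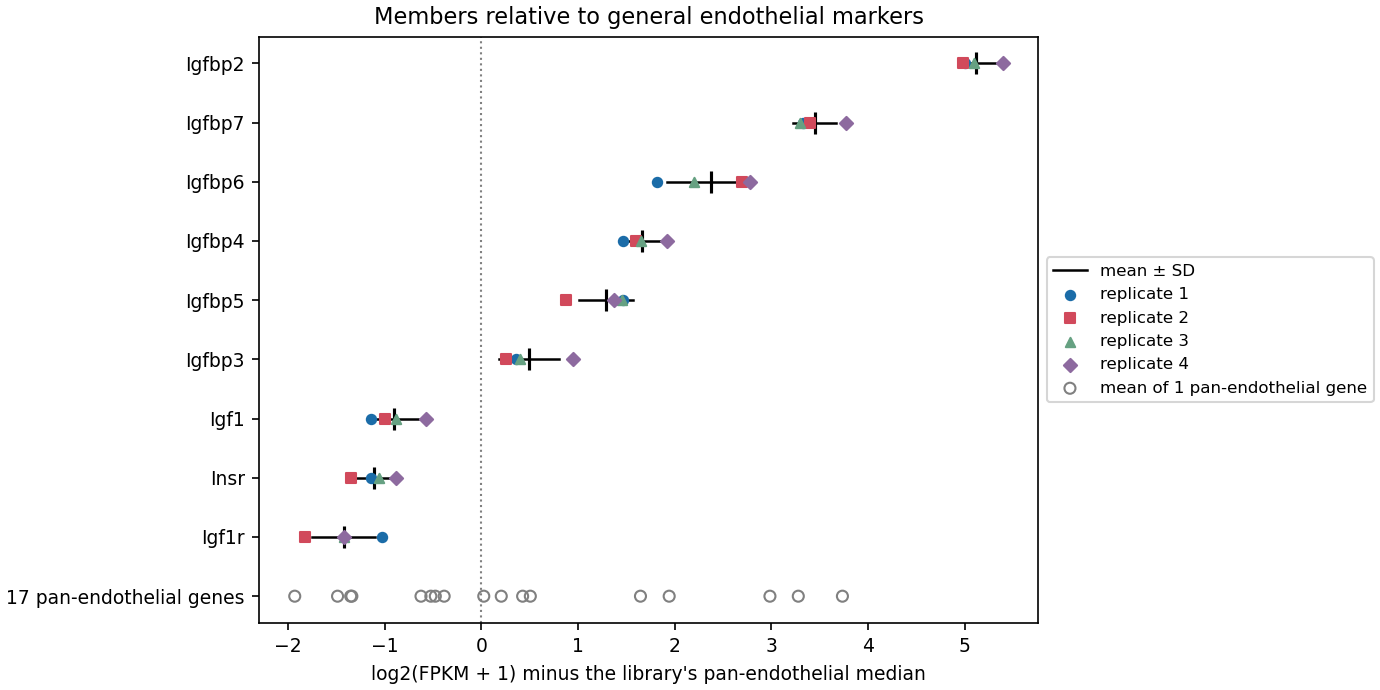
Each member's log2(FPKM + 1) minus the library's median over 17 general endothelial markers, with 1 symbol per library and a line for the mean ± SD (n = 4). Open circles give the means of the 17 markers. The binding proteins lie right of 0 in all 4 libraries, and Igf1, Insr and Igf1r lie left of it.

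The abundant binding proteins Igfbp2 and Igfbp7 stood above most or all fibroblast, pericyte and microglial markers. They stood above fewer of the neuronal, oligodendrocyte and erythroid ones. The mean of Igfbp2 was above 10 of 10 fibroblast markers, 10 of 10 pericyte markers, 12 of 12 microglial markers, 10 of 11 astrocyte markers, 7 of 10 choroid plexus markers and 6 of 12 neuronal markers. The mean of Igfbp7 was above 9 of 10 fibroblast, 9 of 10 pericyte, 9 of 12 microglial, 5 of 11 astrocyte, 6 of 10 choroid plexus and 3 of 12 neuronal markers. Of smooth muscle markers, Igfbp2 was above 10 of 10 and Igfbp7 above 9 of 10. Of oligodendrocyte markers, Igfbp2 was above 6 of 10 and Igfbp7 above 3 of 10. Each was above 3 of 7 erythroid markers. Igf1, Insr and Igf1r were above none of the choroid plexus, neuronal, astrocyte, oligodendrocyte or microglial markers. Each of them was above 4 of 10 pericyte, 2 of 10 smooth muscle and 2 of 7 erythroid markers. Of 10 fibroblast markers, Igf1 was above 2, Insr above 1 and Igf1r above 0. Choroid plexus, meninges and fibroblasts are known sources of Igfbp2 and Igf2 in the rodent brain. The choroid plexus and fibroblast lists were detected in every library, as were the other marker lists, and no list was made for meninges. The part of any cell type in the members' levels was not tested.

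Replicate 2 was the low library for most of the family. It held the lowest value of 8 of the 9 members, Igfbp6 being the exception, while 27.5% of the 13654 genes that averaged 1 FPKM or more were lowest there. Of 56 other pathway genes above 0 in any library, 22 (39.3%) were lowest in replicate 2. The size of the dip varied widely. On the log2 scale, replicate 2 differed from the gene's mean over the 4 libraries by -1.18 for Igf1r, -0.53 for Igfbp5, -0.51 for Insr and -0.33 for Igfbp3. Igf1 differed by -0.20, Igfbp2 by -0.17 and Igfbp4 and Igfbp7 both by -0.09. Igfbp6 was higher there by 0.28.

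Values by transcript length and by marker list are given beside this pattern. The share of genes lowest in replicate 2 was 30.5% for longest transcripts of up to 1000 bases, 15.9% from there to 2000 bases, 17.5% to 4000 bases, 39.9% to 8000 bases and 66.3% above 8000 bases. Igf1r and Insr, with longest transcripts of 11409 and 9355 bases, fall in that last class, and Igfbp5 and Igf1 in the class below it. Igfbp2, Igfbp3, Igfbp4 and Igfbp7 are shorter, in classes where 15.9% or 17.5% of genes were lowest in replicate 2. Igfbp6, at 1112 bases, falls in the class from 1000 to 2000 bases. In that class 42.0% of genes were lowest in replicate 1 and 40.4% were highest in replicate 2. The choroid plexus list was also low in replicate 2, with 10 of 10 markers lowest there and a median deviation of -0.45. Its summed level was 12270 FPKM there, against 15088 to 17968 FPKM in the other libraries. That sum rests mainly on the few highest markers, as 7 of 10 had means below the 179.7 FPKM of Igfbp2. The fibroblast list had a median deviation of -0.17 in replicate 2, with 3 of 10 markers lowest there. The neuronal list was not low, with 1 of 12 markers lowest there and a median deviation of 0.10, and none of the 17 endothelial markers was lowest there. The part of transcript length and of cell makeup in the members' dip was not tested. Without replicate 2 all 9 members kept their calls against 1 FPKM, with Igf1r and Insr still called neither above nor below.

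**Figure D3:**
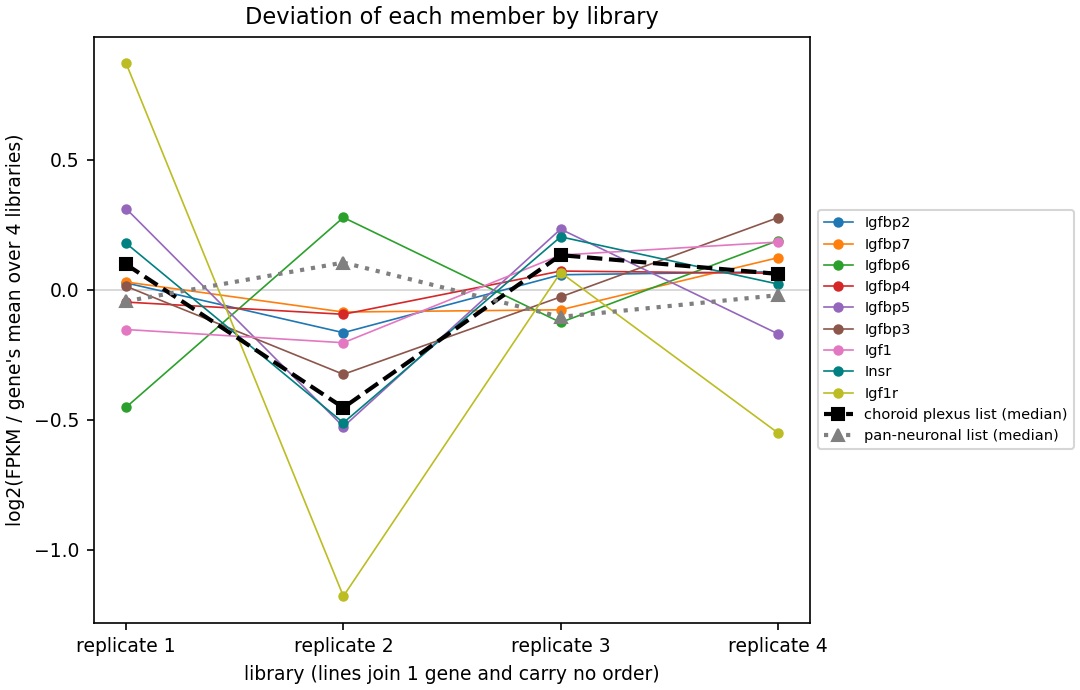
log2 of FPKM over the gene's mean of 4 libraries for each member (thin lines), with the median of the choroid plexus markers (dashed) and of the neuronal markers (dotted). In replicate 2, 8 members and the choroid plexus median (-0.45) lie below 0, while Igfbp6 (0.28) and the neuronal median (0.10) lie above it.

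**Figure D4:**
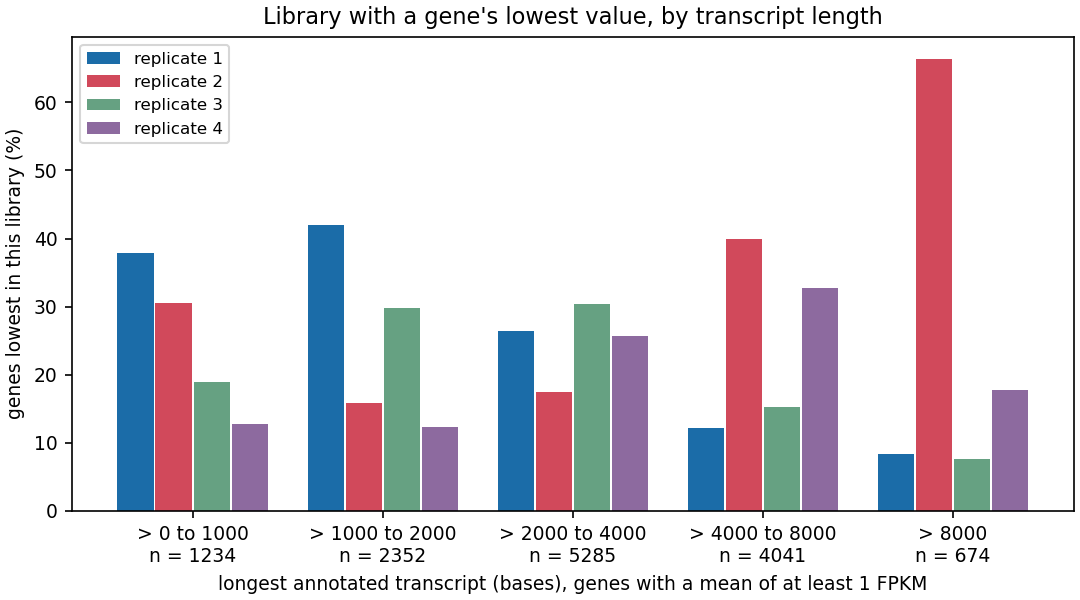
Percent of genes averaging 1 FPKM or more whose lowest value fell in each of the 4 libraries (bars), by the length of the longest annotated transcript in bases. Replicate 2 holds 66.3% of the lowest values among transcripts over 8000 bases and 17.5% above 2000 and up to 4000 bases.

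Variation over the libraries also differed between members at a given level. The coefficient of variation was 60.6% for Igf1r and 21.9% for Igfbp6, against medians of 38.7% and 11.96% over genes within 2 times their means. Igfbp5 varied by 25.5% against 14.8%. The other 6 members varied less than genes of like level. Igf1 varied by 13.6% against 30.2%, Insr by 20.8% against 32.8%, Igfbp3 by 16.9% against 18.5%, Igfbp7 by 6.93% against 10.8%, Igfbp2 by 7.33% against 9.80% and Igfbp4 as given above.

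Among the other ligands, receptors and binding proteins of the pathway, Igf2 and Ins2 were present and the rest were low. Of these 8 genes, 2 lay above 1 FPKM and 4 below in limma's test, 1 did neither (Igf2r) and Ins1 was listed at 0 in all libraries. Over all tested genes, 47.7% lay above 1 FPKM and 40.1% below. Igf2, the fetal growth factor that persists in choroid plexus and meninges, had 43.0, 25.95, 54.9 and 33.7 FPKM in replicates 1 to 4, a mean of 39.4 ± 12.5 FPKM (SD, n = 4). Its lowest value, like that of Igf1, was in replicate 2. Both have longest transcripts above 4000 and up to 8000 bases. In that class 39.9% of genes averaging 1 FPKM or more were lowest in replicate 2. Gm49394 overlaps Igf2 on the same strand by 16048 bases and has no entry among the deposited FPKM values, so the Igf2 level is uncertain. The ratio of Igf2 to Igf1 was 26.6, 16.6, 27.9 and 16.5 in replicates 1 to 4, a mean log2 ratio of 4.41 ± 0.41 (exact sign-flip p = 0.125, the smallest it can give, adjusted over 4 pairs 0.25). Igf2 was the higher in 4 of 4 libraries. The 6 binding proteins together stood above Igf1 plus Igf2 by 6.63, 9.91, 5.28 and 8.79 times in replicates 1 to 4 (mean log2 ratio 2.89 ± 0.41, exact p = 0.125, adjusted 0.25). Ins2, an insulin gene that mouse choroid plexus is known to express, had 16.1 ± 2.90 FPKM (SD, n = 4). Ins1 and Ins2 are near copies, so the split of reads between them is uncertain.

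Among enzymes that cut binding proteins or insulin, Htra1 and Ide were present. Of 6 proteases and stanniocalcins, 2 lay above 1 FPKM and 4 below in limma's test, against 47.7% and 40.1% of all tested genes. Htra1, a secreted serine protease that cuts binding proteins and is mutated in a human small vessel disease, had 67.1 ± 4.89 FPKM, above 5 of the 6 member binding proteins. Ide, the insulin-degrading enzyme, had 7.15 ± 1.44 FPKM (SD, n = 4 each). Pappa and Pappa2, metalloproteases that cut IGF-binding proteins, were each listed at 0 in 2 libraries. Pappa had 0.147 and 0.0112 FPKM in replicates 3 and 4, and Pappa2 had 0.110 and 0.0121 FPKM in replicates 1 and 4. Stc1, which belongs to the stanniocalcins that inhibit those enzymes, had 0.493 ± 0.170 FPKM (SD, n = 4), a difference from 1 FPKM of -0.43 on the log2(FPKM + 1) scale (limma adjusted p = 0.00496).

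Downstream of the receptors, most genes were above 1 FPKM. Of 10 receptor substrates and adaptors, 8 lay above and Irs4 below in limma's test, and Irs1 did neither. The shares over all tested genes were 47.7% above and 40.1% below. The adaptors Grb2, Grb14 and Sh2b1 had means of 35.6 ± 3.01, 20.5 ± 0.195 and 10.4 ± 0.475 FPKM (SD, n = 4 each). Grb14, which binds and inhibits the activated insulin receptor, had 20.4, 20.7, 20.4 and 20.7 FPKM in replicates 1 to 4. The docking protein Irs2 had 3.63 ± 0.331 FPKM, in a narrow range. Irs1, the related docking protein, had 1.52, 0.145, 2.32 and 0.940 FPKM in replicates 1 to 4, a mean of 1.23 ± 0.920 FPKM (SD, n = 4). Irs1 was, like Igf1r, lowest in replicate 2 and did not differ from 1 FPKM beyond the spread between libraries (limma adjusted p = 0.855). Both have longest transcripts above 8000 bases, a class in which 66.3% of genes averaging 1 FPKM or more were lowest in replicate 2. Irs4 had 0.289 ± 0.0755 FPKM.

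Of 25 genes of the PI3K, Akt and mTOR branch, 23 lay above 1 FPKM and 2 below in limma's test, with a median difference of 1.81 on the log2(FPKM + 1) scale. Rheb, the small GTPase that activates mTOR complex 1, had the highest mean of the branch at 163 ± 15.0 FPKM. Gsk3a, a kinase that Akt inhibits, had 47.8 ± 7.24 FPKM and Akt1 24.6 ± 3.58 FPKM (SD, n = 4 each). Below 1 FPKM lay the transcription factors Foxo4, at 0.249 ± 0.128 FPKM, and Foxo6, at 0.284 ± 0.131 FPKM. Over the 5 pathway lists together, 41 of 58 genes lay above 1 FPKM, 13 below and 2 did neither, and 2 were listed at 0, against the background of 47.7% above and 40.1% below.

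Secreted proteins that share an IGFBP-like domain with the binding proteins were present as well. Of 9, 6 lay above 1 FPKM and 2 below in limma's test, and Ccn6 was listed at 0 in all libraries. Among all tested genes, 47.7% lay above and 40.1% below. The matricellular proteins Ccn3 and Ccn2 had 22.6 ± 2.92 and 16.5 ± 1.73 FPKM (SD, n = 4 each), levels between those of Igfbp6 and Igfbp4. Kazald1 had 6.84 ± 1.65 FPKM. Ccn5 was listed at 0 in replicate 1 and had 0.805, 0.0484 and 0.189 FPKM in replicates 2 to 4.

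**Figure D5:**
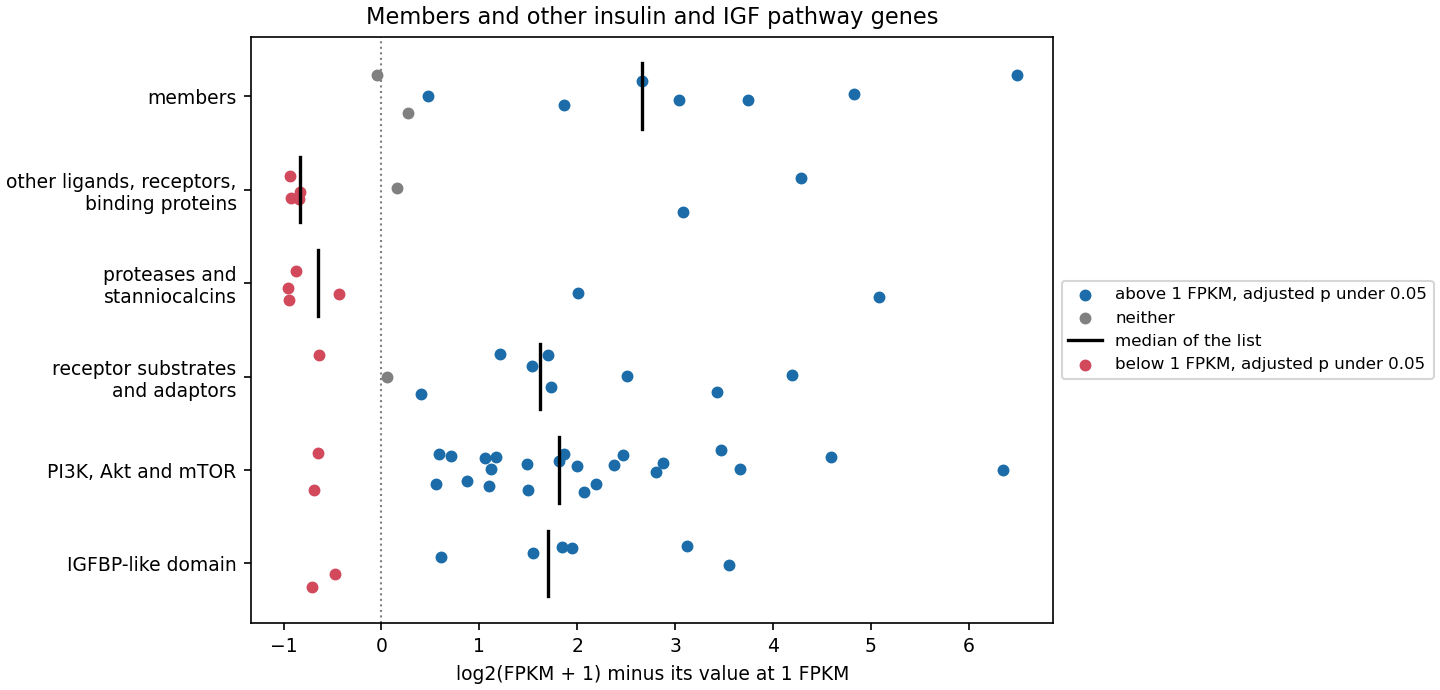
log2(FPKM + 1) minus its value at 1 FPKM for the 9 members and for 5 lists of other insulin and IGF pathway genes (1 point per gene, mean of 4 libraries; genes listed at 0 in every library are not drawn). Bars give the medians: 2.67 for the members, -0.84 for other ligands, receptors and binding proteins, -0.65 for proteases and stanniocalcins, 1.62 for substrates and adaptors, 1.81 for PI3K, Akt and mTOR and 1.70 for the IGFBP-like domain.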

How the data were processed

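Poly(A) RNA-seq was made from 4 libraries. RNA came from a Zymo Research extraction kit and libraries from the NEBNext UltraExpress kit, with mRNA enrichment and random priming, per the labels' protocols. The authors deposited 1 table of FPKM values, which are scaled by transcript length and mapped total. Per the submitters' processing notes, the build was GRCm38 and the tools were StringTie 2.2.1, HISAT2 2.2.1, SAMtools and bcl2fastq 2.20. Annotation release, filters, strand setting and the treatment of multiply matching reads were not given in the sources used here. Read depth is unknown from FPKM, so no counting intervals are given, and 0 can be a failed estimate.

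Libraries were grouped and columns matched by the labels, with 0 columns left out. The deposited FPKM were put on the log2(FPKM + 1) scale, whose pseudocount of 1 understates differences of low genes. Moderated 2-sided tests were fitted with limma 3.58.1 (R 4.3.3), using a mean-variance trend, over the 25206 genes above 0 in any library, against 1 FPKM and, within library, against the median of 17 general endothelial markers. Benjamini-Hochberg adjustment covered all tested genes, with a threshold of 0.05. Ratios of 4 pairs were tested by exact sign flips over 16 patterns. GENCODE M21 gave positions and the longest annotated transcript for 45137 genes of the table, and RefSeq start regions on GRCm38.p6 gave sequences. Percentiles are among tested genes.

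The members and gene lists were chosen with earlier results of these data known. All members are named, and of each of the 5 pathway lists the 3 highest and 2 lowest genes by mean FPKM, plus Igf2, Igf2r, Igfbp1, Irs1 and Irs2. Other names are overlapping genes and the markers not called above 1 FPKM, taken after their values were seen. Alternatives covered the pseudocount, filters, variance model, scaling, the reference level, the marker list and each library left out. Variances without moderation were added after seeing the data. Figures were drawn with matplotlib 3.10.9.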

Additional observations from a re-analysis of the deposited data

Results flagged for a closer look

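Of 33 named genes checked over the 4 libraries, 5 had a library far from the other 3. None of the 9 members was among these 5. For normally distributed values chance flags about 1 in 20. That rate does not apply to Igfbp1, Pappa2 and Pappa, each listed at 0 in more than 1 library. Igfbp1 had 0.196 FPKM in replicate 4 and was listed at 0 in the others. Pappa2 had 0.110 FPKM in replicate 1, and Pappa had 0.147 FPKM in replicate 3, both far above their other libraries at these low levels. Rheb stood out in replicate 2, at 185 FPKM, and Akt1 in the same library, at 29.9 FPKM, each above the other 3 libraries.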

How the results depend on the processing

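Of 536 single-gene values over 42 results, 514 kept their direction and side of the threshold, 6 lost the call, 5 gained it and 11 turned direction. The members above 1 FPKM numbered 6 to 8 over the alternatives, and Igfbp2 and Igfbp4 to Igfbp7 were called above both levels in every one. At a level of 2 FPKM, 1 member lay below, Igf1r (-0.63, limma adjusted p = 0.0213), and Igf1 turned to -0.11 and Insr to -0.31. At 0.5 FPKM Igf1r turned to 0.37 and Insr passed the threshold. With genes kept at a mean of at least 0.1 FPKM, 8 pathway genes lay below 1 FPKM, against 13 in the main fit. The called pathway genes with means under 0.1 FPKM were themselves no longer tested.

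Rescaling each library's FPKM to a fixed sum, as TPM does, raised the median difference of all genes from 1 FPKM to 0.99, against 0.27 as deposited, by construction. Means became 3.85 for Igf1, 2.17 for Igf1r, 3.07 for Insr, 386 for Igfbp2, 13.6 for Igfbp3, 33.1 for Igfbp4, 25.8 for Igfbp5, 56.5 for Igfbp6 and 119.8 for Igfbp7. Igf1r turned to 0.57 and Stc1 to 0.025, Insr (1.01, adjusted p = 0.00259) and Igf2r (0.00306) passed the threshold, and Foxo6 (0.0554) and Ccn5 (0.138) no longer did.

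Leaving out 1 library put Igf1r between -0.23 and 0.095 and Irs1 between -0.17 and 0.34, negative without replicate 1 (-0.04) or 3 (-0.17). Irs1 was -0.14 and -0.25 with pseudocounts of 0.1 and 0.01. Without a mean-variance trend Insr passed the threshold (0.0328). Igfbp3 against the endothelial median lost its call without replicate 4 (0.34, 0.0528) and against the list mean (0.10, 0.462). The causes of these changes were not tested. No paired comparison between groups of samples was possible because the series has 1 group.

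With 4 libraries, the sign-flip tests cannot reach 0.05. FPKM gives no depth, so precision at the low levels of Igf1, Insr and Igf1r is known only from the spread between libraries.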
